A study of Mus musculus with 12 samples.

Results

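Peaks of 4 histone marks were described around 10 genes that set the entry into S phase: the D cyclin genes Ccnd1, Ccnd2 and Ccnd3, the cyclin-dependent kinase (CDK) genes Cdk4 and Cdk6, the transcription factor gene E2f1, the retinoblastoma gene Rb1, and the CDK inhibitor genes Cdkn1a, Cdkn1b and Cdkn1c. They are 10 of the 21883 protein-coding genes of the mm10 gene table. They were chosen by their role in the pathway, though with earlier results of these data known. A peak belonged to a gene when it lay within 50 kb of either end of its gene model. A gene end was marked when at least 1 base of a peak lay within 1 kb of it. Covered bases are the bases of this window that lie under the peaks of a list. For Cdk6 and Rb1 the windows of the 2 ends do not meet, so the middle of these long genes was not covered.

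The peaks came from chromatin immunoprecipitation with sequencing (ChIP-seq) of mouse melanoma cells. The WT line, 971, is wild type for Kmt2d, a gene for a methyltransferase that places H3K4me1 at enhancers, and the mutant line, 493, carries a Kmt2d mutation. Each line had 1 library for H3K4me3, a mark of active promoters, for H3K27ac, a mark of active promoters and enhancers, for H3K4me1, found at enhancers and promoter flanks, and for H3K27me3, the mark of Polycomb repression. The labels do not say how the mutation was made, what the mutant allele is or which tumours gave rise to the lines. With 1 library per line and mark, no difference has a replicate check or a test, and the Kmt2d genotype cannot be told apart from any other difference between the lines or libraries.

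D cyclins bind CDK4 or CDK6, and the active kinases phosphorylate the retinoblastoma protein, which otherwise holds E2F transcription factors and keeps the genes of DNA replication silent. The CIP/KIP inhibitors p21 (Cdkn1a), p27 (Cdkn1b) and p57 (Cdkn1c) bind cyclin and CDK complexes and restrain the cycle. In melanoma this pathway is often activated, through loss of the CDK4 inhibitor p16 (encoded by Cdkn2a), a mutated CDK4 or amplified cyclin D1. Cyclin D1 is also induced by MAPK signalling, and Cdkn1a is the textbook target of p53.

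Upstream sequences from RefSeq (GRCm38.p6) were available for 6 of the 10 genes, in 8 windows, each of the 250 bases before a transcription start. The 5 windows below are those of Cdkn1a, Cdk4, E2f1 and Cdkn1b. Each is written 5′ to 3′ on the strand of the gene, with matches to the motifs searched in capitals. Cdkn1a has 2 starts in this table, 2790 bp apart. The first window is chr17:29090729-29090978 (plus strand) and the second chr17:29093519-29093768 (plus strand). Those of Cdk4, E2f1 and Cdkn1b are chr10:127063285-127063534 (plus), chr2:154569427-154569676 (minus) and chr6:134920151-134920400 (plus).
Cdkn1a, first start: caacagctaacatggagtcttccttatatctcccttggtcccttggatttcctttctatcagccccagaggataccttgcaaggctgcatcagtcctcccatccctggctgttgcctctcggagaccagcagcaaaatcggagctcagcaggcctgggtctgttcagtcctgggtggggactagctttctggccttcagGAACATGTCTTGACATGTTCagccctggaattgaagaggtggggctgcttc
Cdkn1a, second start: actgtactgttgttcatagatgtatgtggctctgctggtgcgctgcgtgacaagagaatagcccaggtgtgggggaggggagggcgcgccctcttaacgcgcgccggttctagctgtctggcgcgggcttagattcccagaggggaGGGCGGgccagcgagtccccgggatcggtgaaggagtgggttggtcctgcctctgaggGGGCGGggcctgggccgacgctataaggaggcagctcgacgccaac
Cdk4: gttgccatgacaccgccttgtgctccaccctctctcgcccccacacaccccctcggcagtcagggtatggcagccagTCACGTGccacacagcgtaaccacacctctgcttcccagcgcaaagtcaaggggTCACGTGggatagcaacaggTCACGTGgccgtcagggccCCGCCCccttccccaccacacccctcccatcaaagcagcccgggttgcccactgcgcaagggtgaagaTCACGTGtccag
E2f1: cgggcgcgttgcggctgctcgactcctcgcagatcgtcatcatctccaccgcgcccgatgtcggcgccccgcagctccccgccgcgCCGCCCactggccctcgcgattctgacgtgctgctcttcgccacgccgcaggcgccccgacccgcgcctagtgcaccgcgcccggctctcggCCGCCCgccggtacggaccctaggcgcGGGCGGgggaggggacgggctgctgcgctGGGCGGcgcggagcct
Cdkn1b: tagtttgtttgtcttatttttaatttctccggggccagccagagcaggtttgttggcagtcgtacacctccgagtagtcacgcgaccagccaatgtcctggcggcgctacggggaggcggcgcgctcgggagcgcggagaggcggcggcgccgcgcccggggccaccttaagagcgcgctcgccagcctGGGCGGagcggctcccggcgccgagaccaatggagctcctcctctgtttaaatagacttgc

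The motifs searched on both strands were E2F (TTTCGCGC or TTTGGCGC), CRE (TGACGTCA), AP-1 (TGAGTCA or TGACTCA), the E-box CACGTG, the GC box GGGCGG, the M-box (TCATGTG or TCACGTG), TCF/LEF (CTTTGAA) and, added after the sequences were seen, a pair of adjoining p53 half-sites with 1 of 20 positions allowed off. A TCACGTG M-box holds the E-box. The first Cdkn1a window held 1 pair of p53 half-sites, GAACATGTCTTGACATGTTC, from -51 to -32 relative to the start, which 25 of 32817 RefSeq promoters held (0.0762%). It held no GC box and 2 CpG dinucleotides at 54.0% GC, whereas the window of the second Cdkn1a start held 2 GC boxes and 19 CpG dinucleotides at 64.8% GC. The median over all promoters was 6 CpG dinucleotides and 52.4% GC.

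The Cdk4 window held 4 copies of TCACGTG, the sequence read by MYC and, as an M-box, by the melanocyte factor MITF. An E-box occurred in 6.02% of all promoters and an M-box in 6.28%. The E2f1 window held 4 GC boxes and 43 CpG dinucleotides at 77.6% GC. Its start lies 466 bp inside the upper gene end, so this window lies within the gene model. The bases before that gene end were not searched. The Cdkn1b window held 1 GC box and 28 CpG dinucleotides at 64.4% GC. A GC box occurred in 32.7% of all promoters. The windows of Cdk6 (1 E-box) and Ccnd3 (59.6% GC with 2 GC boxes at the first start, 64.8% GC with 1 at the second) are not printed. None of the 8 windows held an E2F, CRE, AP-1 or TCF/LEF match, which occurred in 0.655%, 1.55%, 4.46% and 4.46% of all promoters. These matches describe the letters of the windows and do not show binding.

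The lists themselves differed in length. For every 100 WT peaks the mutant list held 77.7 peaks of H3K4me3, 71.0 of H3K27ac and 21.0 of H3K4me1. The H3K4me3 peaks were broad (median width 1609 bp in the WT against 1976 bp in the mutant line), the H3K27ac peaks narrow (116 bp and 107 bp) and the H3K4me1 peaks of 424 bp and 352 bp. Sequencing depth is not given in the sources used here. The mutant H3K27me3 list is named as called against the WT H3K27me3 library, so its 1300 regions are read only as places higher in the mutant line. H3K4me3 at a gene end was also counted for cell type markers. The share of all genes was 56.4% in the WT and 56.7% in the mutant line. Of 13 melanocyte markers, 5 were marked in the WT line, among them Mitf, Pax3 and Pmel. In the mutant line 8 were marked, which also took in Sox10, Mlana and Slc45a2. The pigment genes Tyr, Tyrp1 and Dct were unmarked in both. Fibroblast markers were marked at 5 of 8 genes in the WT and 4 in the mutant line, with Col1a1, Col3a1, Pdgfra and Pdgfrb marked in both. Keratinocyte markers were marked at 2 and 4 of 8, endothelial markers at 1 of 6 and immune markers at 1 of 7 in both. These counts do not settle the cell type. The part of these lineage differences in the results below was not tested.

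H3K4me3 was called at a gene end of all 10 genes in the WT line but of 9 in the mutant line, where the shares of all protein-coding genes were 56.4% and 56.7%. The exception was Cdkn1a, marked in the WT line alone, a state found at 1.37% of all genes. In the more significant 50% of each list H3K4me3 was called at 7 genes in each line, without Ccnd3, Cdkn1a and Cdkn1c. H3K27ac differed more. It lay at a gene end of Ccnd1, Cdk4, Cdk6 and E2f1 in the WT line and of Ccnd1 and Cdkn1a in the mutant line. Thus 3 of the 10 genes were marked by H3K27ac in the WT line alone and 1 in the mutant line alone, against 16.1% and 6.84% of all genes. Among genes with H3K4me3 at an end in the WT line these shares were 26.7% and 10.9%, so the counts are near the background. H3K4me1 lay at a gene end of Ccnd3 and Cdk4 in the WT line alone, against 3.73% of all genes and 5.52% of those with WT H3K4me3, and at none of the 10 in the mutant line alone, against 1.79% and 3.16%. H3K27me3 lay at a gene end of Cdkn1c alone in the WT line, against 9.94% of all genes.

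**Figure D1:**
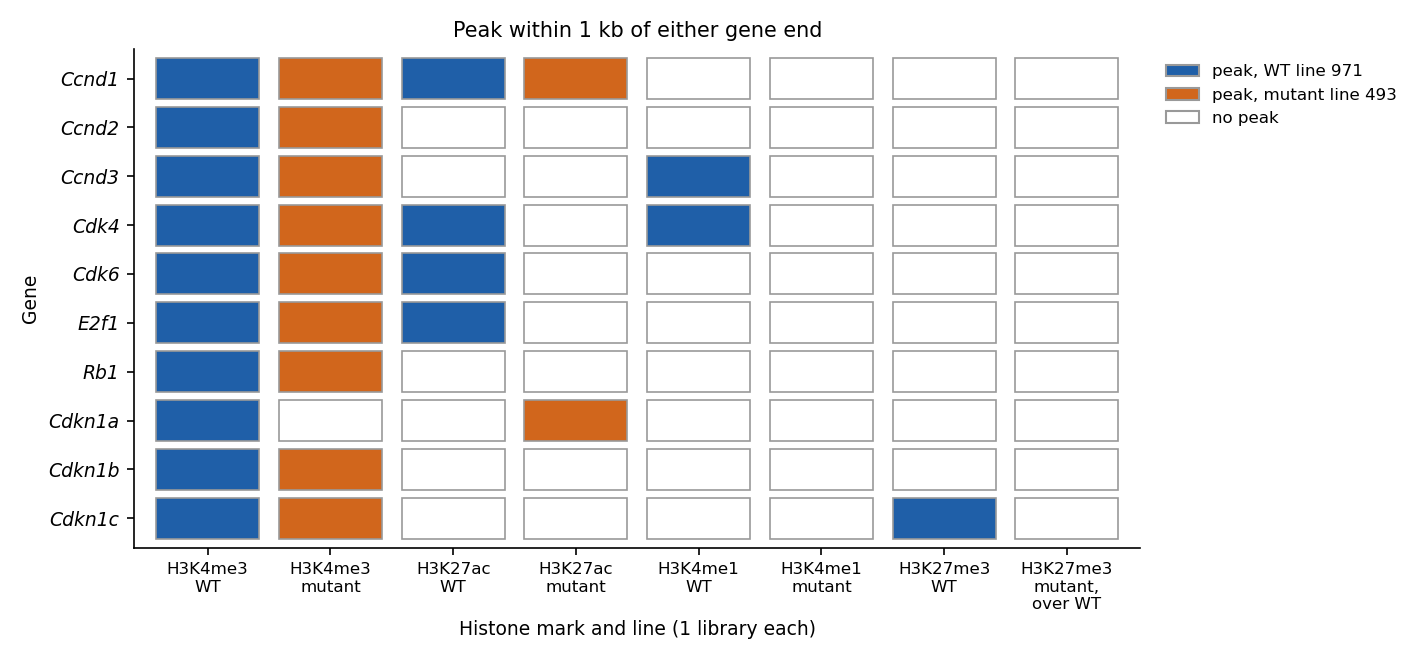
Peaks at the ends of the 10 genes. Rows are genes and columns are histone marks in each line (1 library each), with a filled cell where a peak lies within 1 kb of either gene end, blue for the WT line 971 and orange for the mutant line 493. H3K4me3 fills 10 WT and 9 mutant cells, and H3K27ac 4 WT and 2 mutant cells.

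Summed over the 10 windows and relative to the WT line, H3K4me3 differed less than the enhancer marks, as it did over all genes. The lowest H3K4me3 values of single genes were 60.8% of the WT value at Cdkn1a and 69.2% at Cdk6. Covered bases of H3K4me3 were lower in the mutant line at 7 genes and higher at 3, and none reached 0.5 times or double the WT value, against 4.5% and 2.69% of the genes covered in either line. Covered bases of H3K27ac were lower in the mutant line at all 10 genes, against 72.6% of all covered genes, but in lists cut to equal length at 7, with Ccnd1 (0.21 kb), Ccnd2 (0.258 kb) and Ccnd3 (0.001 kb) then higher in the mutant line. At 6 of them (Ccnd3, Cdk6, E2f1, Rb1, Cdkn1b and Cdkn1c) they were at most 0.5 times the WT value, against 44.8% of covered genes and 45.1% of those with WT H3K4me3, and at none at least double, against 11.7%. H3K4me1 was at most 0.5 times the WT value at 8 genes, against 71.9% of covered genes and 69.9% of those with WT H3K4me3, and at least double at Ccnd2 alone, against 14.0%. Within 100 kb the count for H3K27ac was 1 in place of 6, and in lists cut to equal length that for H3K4me1 was 2 in place of 8. E2f1, at 44.6% of the WT value, lay just inside this limit, and Ccnd3, at 50.1%, just outside it.

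The median difference over the 10 genes, mutant minus WT, was -1.27 kb for H3K4me3, -0.206 kb for H3K27ac and -0.543 kb for H3K4me1. Over all covered genes it was -0.45 kb, -0.16 kb and -0.664 kb. Summed over the 10 genes, the mutant line had 89.6% of the WT bases for H3K4me3, 50.6% for H3K27ac and 19.9% for H3K4me1, and the sums over all genes stood at 89.5%, 60.7% and 22.2%. The H3K27ac share of the 10 genes was below that of all genes, a difference that could not be tested.

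**Figure D2:**
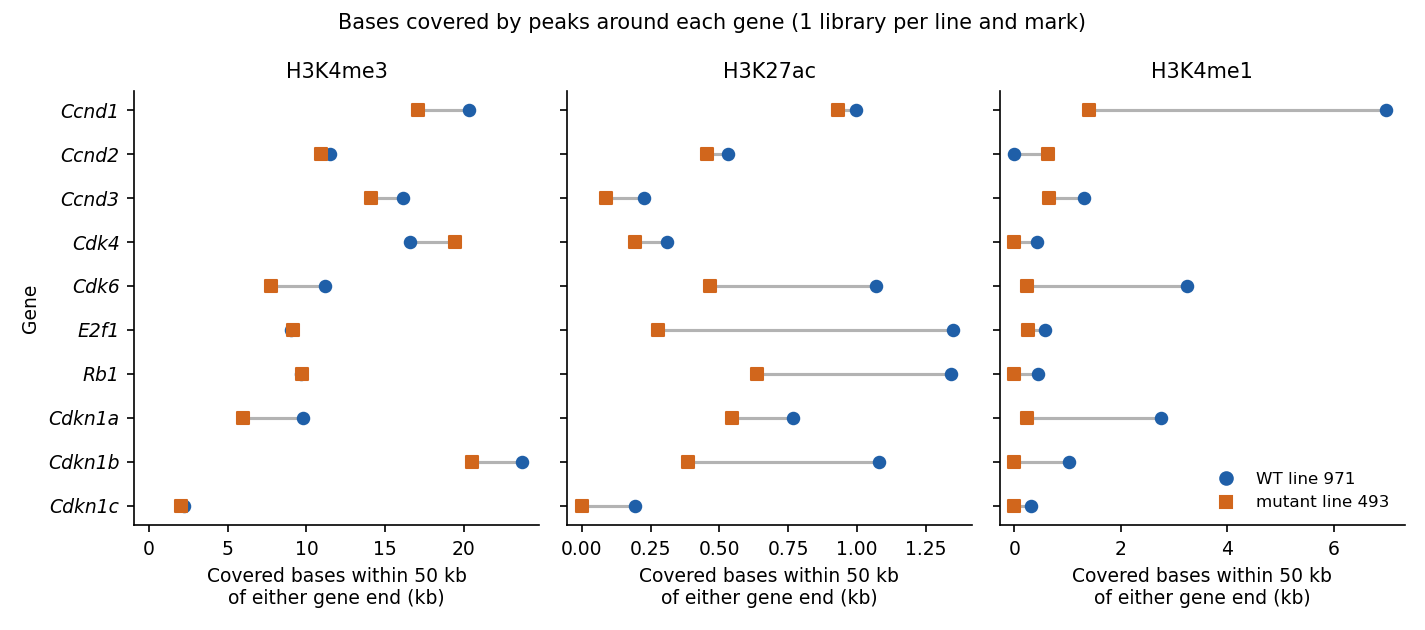
Covered bases around each gene. The horizontal axis gives kb under peaks within 50 kb of either gene end, for H3K4me3, H3K27ac and H3K4me1 (on different scales), with blue circles for the WT line and orange squares for the mutant line. H3K27ac is lower in the mutant line at all 10 genes, H3K4me1 at 9, and H3K4me3 is higher only at Cdk4, E2f1 and Rb1.

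**Figure D3:**
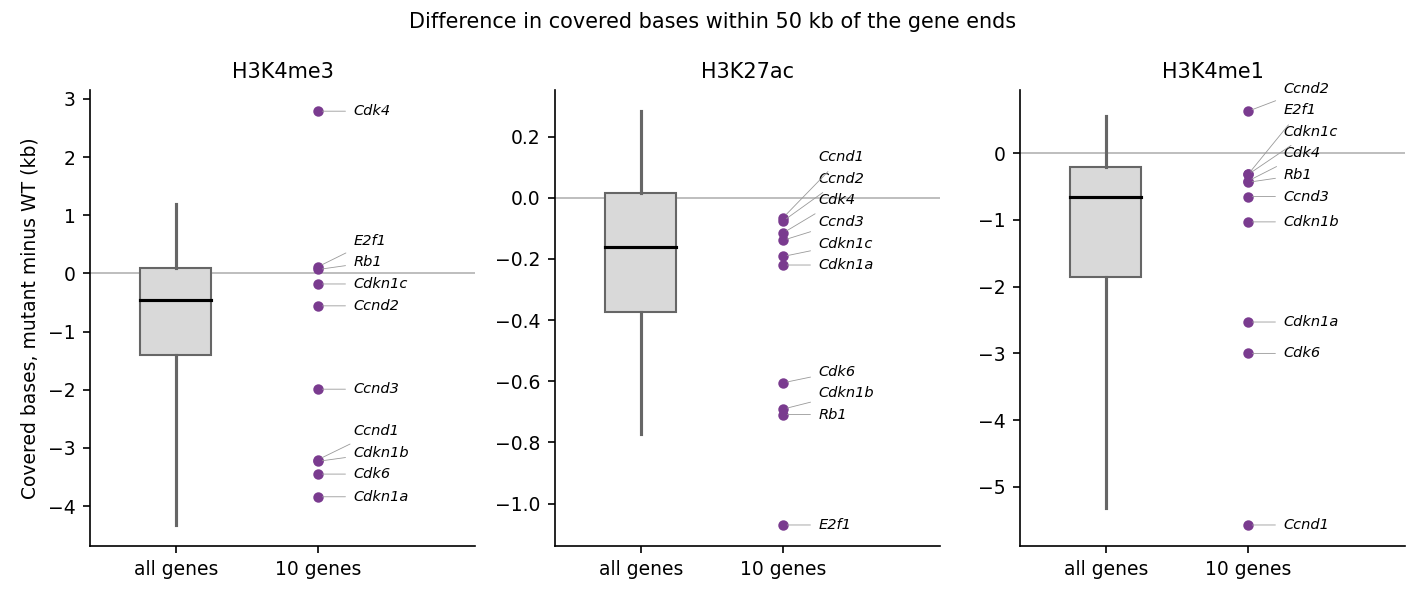
Differences of the 10 genes beside those of all genes. The vertical axis gives covered bases, mutant minus WT, in kb, and the box holds the middle 50% of all genes covered in either line, its black line the median and its whiskers the 5 and 95 percentiles. Cdk4 lies above the upper whisker for H3K4me3 at 2.79 kb, E2f1 below the lower one for H3K27ac at -1.07 kb, and for H3K4me1 Ccnd1 below the lower one at -5.57 kb and Ccnd2 above the upper one at 0.628 kb.

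Ccnd1, the gene of cyclin D1 (chromosome 7, 144929931 to 144939831), had the most H3K4me1 of the 10 genes and an H3K4me3 peak among the widest of either list. A single H3K4me3 peak ran over its upper end in both lines, 11.7 kb wide in the WT line, where 39 of 23154 peaks were as wide (0.168%), and 11.5 kb in the mutant line (0.139%). Such broad domains are known from genes of high and steady transcription. H3K27ac lay at the upper end in both lines. Its peaks there were of 191 bp and 96 bp in the WT line, and of 93 bp and 101 bp in the mutant line. A further mutant peak of 207 bp, 1156 bp from that end, overlapped the WT peak of 191 bp. Over the whole window H3K27ac covered 0.997 kb against 0.932 kb. Both marks were thus called at the upper end of Ccnd1 in both lines. In the more significant 50% of each list the H3K27ac call held in the WT line alone.

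The H3K4me1 around Ccnd1 differed between the lines. There were 10 WT peaks and 4 mutant peaks, covering 6.98 kb and 1.4 kb. An element 24.9 kb beyond the upper end carried H3K4me1 in both lines (144964694 to 144965432 in the WT and 144964941 to 144965280 in the mutant line), with H3K27ac in both, 148 bp apart. At 31.4 kb the WT line had H3K27ac together with a 646 bp H3K4me1 peak, and the mutant line had H3K27ac 502 bp away without H3K4me1. The largest H3K4me1 peak of all 10 genes, 3082 bp wide with a 5.21-fold enrichment over input (144980090 to 144983171), lay 40.3 kb beyond the upper end in the WT line alone, with a WT H3K27ac peak of 181 bp inside it. The nearest mutant H3K27ac was 11754 bp away from that peak. Of these 3 elements, 2 therefore had H3K27ac nearby in the mutant line, 1 had H3K4me1, and the third had neither mark there.

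Ccnd2, the gene of cyclin D2 (chromosome 6, 127125162 to 127152188), was the only one of the 10 with more H3K4me1 in the mutant line. Its upper end lay under H3K4me3 in both lines, in 1 WT peak of 7.85 kb and in 2 adjoining mutant peaks of 3043 bp and 4574 bp. The WT line had no H3K4me1 within the window, whereas the mutant line had a peak of 628 bp with a 5.4-fold enrichment (127153782 to 127154409), 1593 bp beyond the upper end. Of its bases, 553 lay under a WT H3K27me3 peak (127153530 to 127154334), one of 4 that ran from there to 127159538. The flank of the Ccnd2 promoter thus carried the Polycomb mark beside H3K4me3 in the WT line. What the mutant line had of H3K27me3 there is not known, because its list shows only excess over the WT line, and none was called. H3K27ac inside the gene lay close by in both lines, 87 bp and 323 bp apart. The total of the whole window, which also holds a peak nearest to Tigar in each line, was 0.53 kb and 0.454 kb.

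Ccnd3, the gene of cyclin D3 (chromosome 17, 47505051 to 47599689), had little H3K27ac, and none of it at the gene. H3K4me3 marked its first start (1027 bp and 916 bp, scores of 201.3 and 250.63) and, far more strongly, its second start, with peaks of 4.53 kb and 3.64 kb at a score of 3100. The score is the older MACS measure, -10 times the log10 of the p value, and 3100 recurs in 18.6% of WT and 17.9% of mutant peaks, so it does not show equal signal. Both starts lie on the plus strand, so the upper end of Ccnd3 is its downstream end. H3K4me1 was found 267 bp beyond that end in the WT line alone, in a peak of 736 bp. Its enrichment, 5.63-fold, was the highest of H3K4me1 among the 10 genes. Another WT peak, near the neighbour Med20, a Mediator subunit gene, was shared with the mutant line.

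Cdk4, the kinase gene (chromosome 10, 127063535 to 127067288), carried H3K4me3, H3K27ac and H3K4me1 at a gene end in the WT line, but H3K4me3 alone in the mutant line. The peaks without a mutant counterpart were an H3K27ac peak of 111 bp with a 5.3-fold enrichment, 267 bp inside the gene (127063802 to 127063912), and an H3K4me1 peak of 417 bp, 563 bp before it (127062555 to 127062971). The nearest mutant H3K27ac was 6650 bp away, at the neighbour Tspan31, where both lines had it. H3K4me3 at the Cdk4 start was 2.73 kb wide in the WT against 2.71 kb in the mutant line, and its lower edge moved from 127062874 to 127063387. It covered 250 bases of the printed window with its 4 E-boxes in the WT line against 148 in the mutant line.

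Cdk4 was also the gene with the largest excess of H3K4me3 in the mutant line, 19.4 kb against 16.6 kb, and none of that excess lay at Cdk4 itself. Counting only peaks for which Cdk4 was the nearest gene, the difference was -0.02 kb. It was 0.044 kb within 100 kb and -1.12 kb in the more significant 50% of each list. The window is crowded, with 9 other protein-coding genes. The mutant line alone had H3K4me3 next to Cyp27b1, which makes active vitamin D (1160 bp, 127048772 to 127049931), and near Agap2, a GTPase-activating protein gene (958 bp, 127081015 to 127081972). Of these peaks 740 and 958 bases lay under WT H3K27me3, which covered 11.3 kb of the window. The end of chromosome 10, from 80 Mb on, held 118 mutant H3K27ac peaks and 53.3 mutant H3K4me1 peaks per 100 WT peaks, and 84.2 of H3K4me3, each above the value of the whole list, though mutant peaks outnumbered WT peaks for H3K27ac alone. Covered bases there stood at 99.1% of the WT value for H3K4me3, 109% for H3K27ac and 47.6% for H3K4me1. Cdk4 lies in that stretch, and the part of the region in its values was not tested.

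Cdk6 (chromosome 5, 3341004 to 3531008), the other kinase of the D cyclins, had promoter H3K4me3 in both lines and fewer mutant than WT peaks inside the gene. The promoter peak was 4.98 kb wide in the WT against 4.36 kb in the mutant line and covered the RefSeq start, 2889 bp inside the lower gene end. An H3K27ac peak of 156 bp with a 6.67-fold enrichment (3341087 to 3341242) lay under it in the WT line alone. Within the gene, 27.5 kb to 29.0 kb from its upper end, the WT line had 3 H3K4me1 peaks between 3501475 and 3503555 together with 2 H3K4me3 peaks of 1415 bp and 536 bp. The mutant line had 1 H3K4me1 peak of 232 bp there, overlapping the first, and no H3K4me3. H3K4me1 of the whole window was 3.24 kb against 0.232 kb, and H3K27ac 1.07 kb against 0.467 kb.

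E2f1, the gene of the transcription factor that the retinoblastoma protein holds (chromosome 2, 154559400 to 154569892, on the minus strand), showed the largest difference in H3K27ac of the 10 genes. The WT line had 1.35 kb and the mutant line 0.277 kb, which is 20.5%. In the WT line a peak of 336 bp with a 7.18-fold enrichment (154570840 to 154571175) lay 947 bp before the gene, and another of 231 bp lay inside it. Both flanked the GC-rich window printed above, whose start lies 466 bp inside the upper gene end. The mutant line had no H3K27ac nearer than 15479 bp to the inner peak, and its 2 peaks lay near the neighbours Actl10 and Zfp341. H3K4me3 at the start was 3853 bp wide in the WT against 3463 bp in the mutant line and covered all 250 bases of the window in both. The upper gene end of E2f1 was thus marked in both lines by H3K4me3 and in 1 line by H3K27ac.

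Rb1 (chromosome 14, 73192858 to 73325951) had H3K4me3 over its upper end in both lines, in peaks of 3292 bp and 2910 bp. No H3K27ac lay within 1 kb of its ends, and the nearest WT peak was 88 bp wide, 1210 bp beyond the upper end, with no mutant counterpart. The H3K27ac of the window, 1.34 kb against 0.635 kb, lay mostly nearest to other genes. Its largest peak, of 643 bp, lay at Lpar6, a lysophosphatidic acid receptor gene that sits inside Rb1 and has its own H3K4me3 in both lines. The mutant line alone had 2 further H3K4me3 peaks, of 776 bp inside Rb1 and of 744 bp near Itm2b, with low scores of 91.99 and 109.1.

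**Figure D4:**
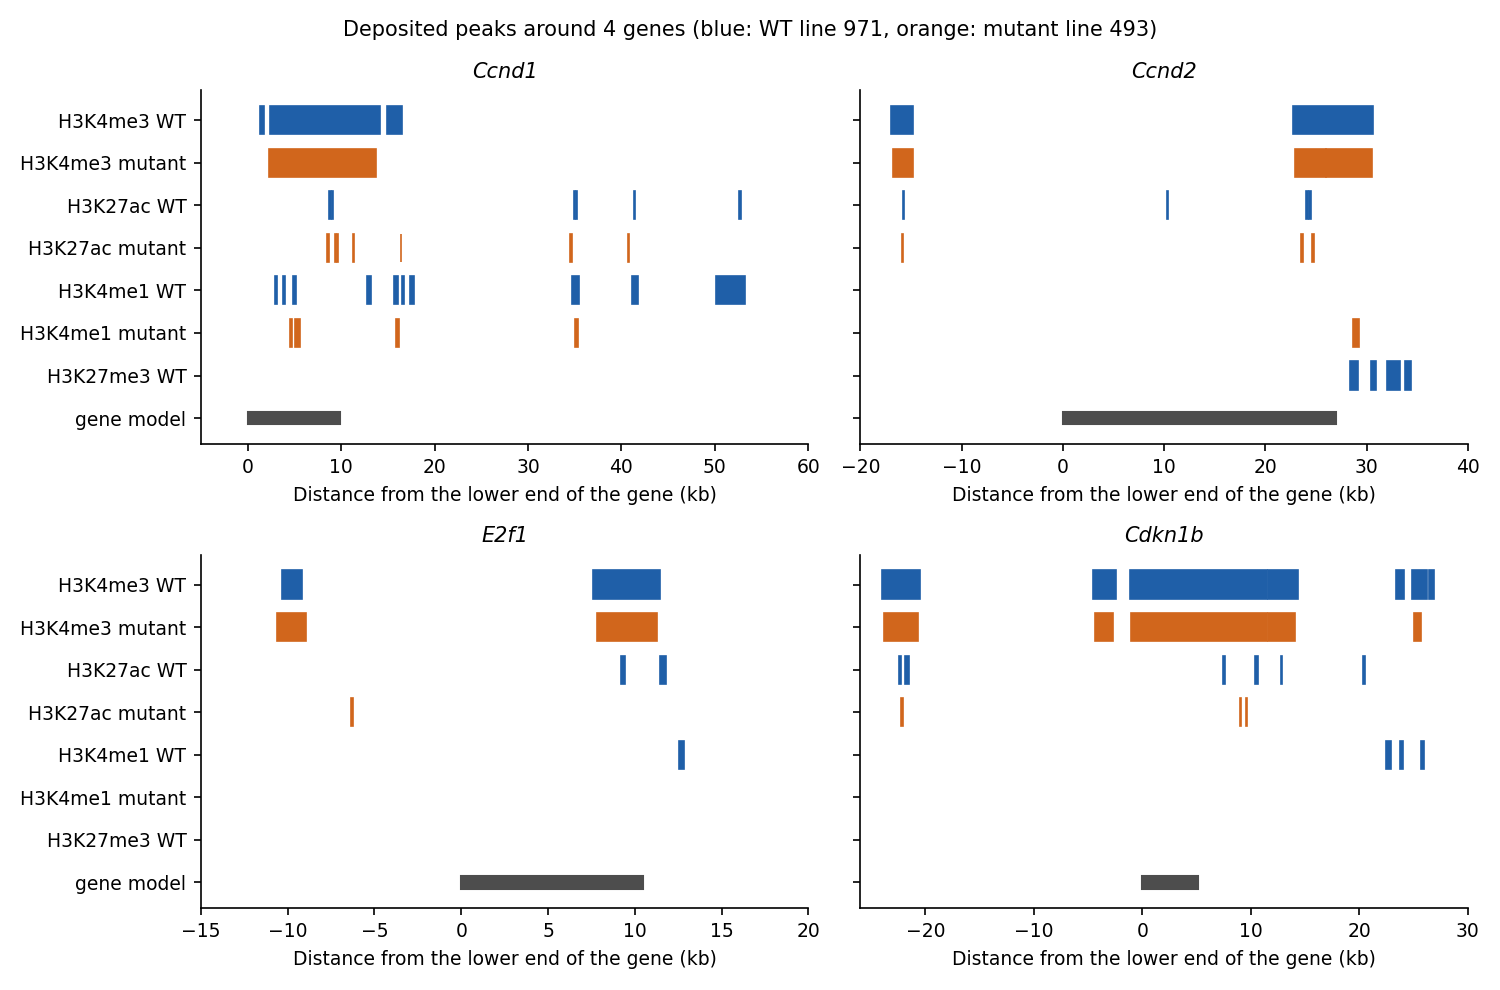
Peaks around Ccnd1, Ccnd2, E2f1 and Cdkn1b. The horizontal axis gives the distance in kb from the lower end of the gene, rows are marks and lines, blue bars are WT and orange bars mutant peaks, and the grey bar is the gene. The 3.08 kb H3K4me1 peak of Ccnd1 and the pair of H3K27ac peaks at the upper end of E2f1 have no orange counterpart, and the H3K4me1 peak of Ccnd2 has no blue one.

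Cdkn1a, the p21 gene (chromosome 17, 29090979 to 29100722), was the only one of the 10 whose H3K4me3 at a gene end differed. In the WT line a peak of 2377 bp with a score of 295.32 (29090571 to 29092947) covered the first start, next to a stronger one of 4951 bp (29092960 to 29097910, score 3100) over the second start. The mutant line had only the second (4166 bp, 29093248 to 29097413, score 3100), which began 2268 bp after the first start. The first printed window, with the p53 half-sites, was therefore covered over 250 bases in the WT line against 0 in the mutant line, and the second, with its GC boxes, over 250 in both. With a gene end distance of 2.5 kb, or in the more significant 50% of each list, the gene end state no longer differed, because the stronger second peak then counted or the weaker first one dropped out. H3K4me3 of the whole window was 9.78 kb against 5.95 kb.

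H3K27ac ran the other way at the first start of Cdkn1a. A mutant peak of 163 bp with a 5.66-fold enrichment (29090480 to 29090642) lay 336 bp before that start, outside any mutant H3K4me3, and the WT line had none within 3468 bp. The WT line had its own H3K27ac inside the gene, 434 bp wide with a 6.49-fold enrichment (29094448 to 29094881), 678 bp after the second start. So each line had 1 H3K27ac peak at the gene, and they lay 3805 bp apart.

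An element 11.8 kb before Cdkn1a was common to both lines. H3K4me3 there was 1394 bp wide in the WT line (29077737 to 29079130) and 1781 bp in the mutant line (29077751 to 29079531), with overlapping H3K27ac of 191 bp and 161 bp. The H3K4me1 on that side was found in the WT line alone, in 5 peaks 9.36 kb to 32.9 kb from the gene, of which 3 had Cdkn1a as the nearest gene. The 1 mutant H3K4me1 peak lay inside the gene, where the WT line had none. The total was 2.75 kb in the WT against 0.227 kb in the mutant line.

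**Figure D5:**
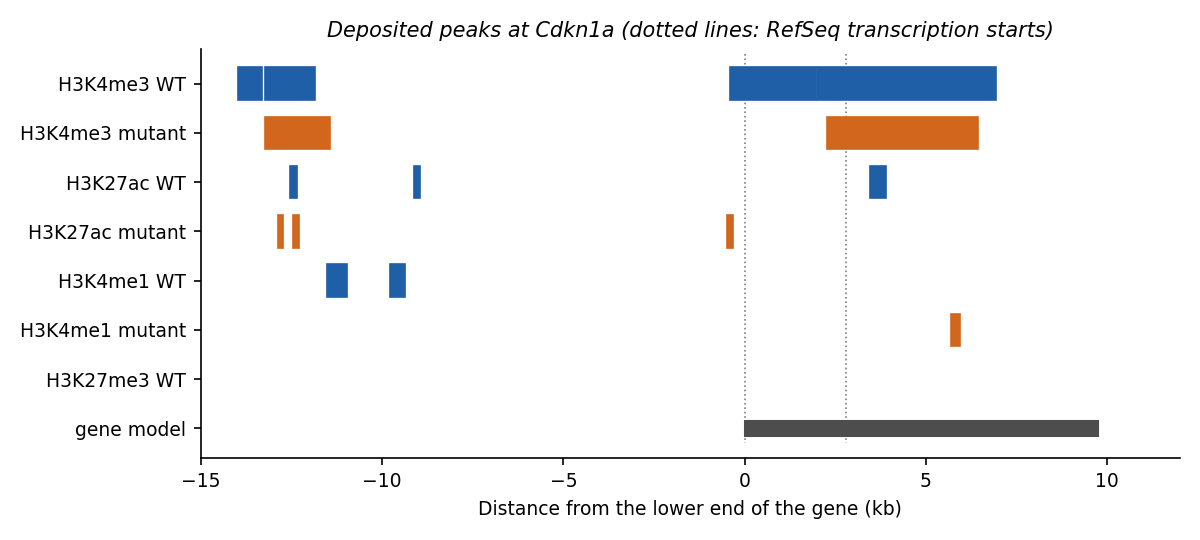
Peaks at Cdkn1a. The horizontal axis gives the distance in kb from the lower end of the gene, rows are marks and lines (blue WT, orange mutant), the grey bar is the gene and the dotted lines are the 2 RefSeq starts. H3K4me3 spans both starts in the WT line, in 2 peaks that almost touch, and the second start alone in the mutant line.

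Cdkn1b, the p27 gene (chromosome 6, 134920401 to 134925525), had the widest H3K4me3 peak of the 10 genes in both lines. It ran over the whole gene and beyond, 12.6 kb in the WT line, where 23 of 23154 peaks were as wide (0.0993%), and 12.5 kb in the mutant line, where 16 of 17987 were (0.089%). The H3K27ac peaks under or next to this domain did not overlap between the lines. Over the whole lists only 8.65% of WT and 12.2% of mutant H3K27ac peaks overlapped the other line. The WT line had peaks 2352 bp, 5242 bp, 7619 bp and 15240 bp beyond the upper end, and the mutant line 3842 bp and 4420 bp beyond it. The nearest of these between the lines lay 728 bp apart. The totals of the whole window, which also hold peaks nearest to Gpr19 and Apold1, were 1.08 kb and 0.385 kb. The WT line also had 3 H3K4me1 peaks, of 447 bp, 242 bp and 340 bp, 17.3 kb to 20.5 kb beyond the upper end among WT H3K4me3, and the mutant line had no H3K4me1 within the window.

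Cdkn1c, the imprinted p57 gene (chromosome 7, 143458339 to 143461059), had the least H3K4me3 of the 10 genes and was the only one with H3K27me3 at a gene end in the WT line. Its H3K4me3 peak was 634 bp wide with a score of 123.83 in the WT line and 478 bp with a score of 54.56 in the mutant line, close to the smallest score of the lists. WT H3K27me3 covered 15.8 kb around it in 19 peaks, the largest of 4688 bp and 5.41-fold (143443108 to 143447795), and 2 of them lay inside the gene. The gene end call did not hold in the more significant 50% of the list, where none of the 10 genes had one, and at 2.5 kb Ccnd2 had one too. The window reaches its imprinted neighbours Kcnq1, Slc22a18 and Phlda2. The 2 WT H3K27ac peaks and the 1 WT H3K4me1 peak in it lay nearest to Slc22a18, and the mutant line had no peak of either mark. This was the one gene of the 10 that looked largely unmarked by active marks in both lines.

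Of the 10 genes, 6 had WT H3K27me3 within 50 kb, against 42.4% of all genes: Cdkn1c, Cdk4 (11.3 kb), Ccnd3 (4.57 kb), Ccnd1 (4.42 kb), Ccnd2 (3.49 kb) and Cdkn1a (3.13 kb). Of its 46 peaks, 9 lay nearest to one of the 10 genes, at Ccnd2 and Cdkn1c, and 37 nearest to others, such as Fgf15 beside Ccnd1 and Rab44 beside Cdkn1a. No region with more H3K27me3 in the mutant line lay within 50 kb of any of the 10, against 5.77% of all genes.

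Peak by peak, most H3K4me3 peaks were found in both lines and most H3K27ac peaks were not. Of the 49 WT H3K4me3 peaks in the windows, 37 (75.5%) overlapped a mutant peak, against 72.2% of the whole list, and of the 42 mutant peaks 38 (90.5%) overlapped a WT peak, against 91.8%. For H3K27ac 5 of 51 WT peaks (9.8%) and 5 of 30 mutant peaks (16.7%) overlapped one of the other line, against 8.65% and 12.2%. Within 1 kb these counts were 21 of 51 (41.2%) and 20 of 30 (66.7%), against 30.1% and 38.8% of the whole lists. For H3K4me1 6 of 33 WT peaks (18.2%) and 6 of 9 mutant peaks (66.7%) overlapped, against 6.63% and 31.7%. Most of the 9 mutant H3K4me1 peaks around these genes thus overlapped a WT peak by at least 1 base, several of them at Ccnd1. Several peaks belong to 1 gene and 1 library, so these shares are descriptions.

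The other genes of the pathway, 38 in all, are counted here in the same way. H3K4me3 marked 35 of them at a gene end in both lines and 3 in neither, and none was at 0.5 times or double. H3K27ac lay at a gene end in the WT line alone at 12 of them and in the mutant line alone at 8, against 16.1% and 6.84% of all genes and 26.7% and 10.9% of those with WT H3K4me3. The 12 were Ccne2 and Ccna2, cyclins of S phase, the mitotic kinase genes Cdk1, Plk1 and Aurka, Cdkn2d, Cdkn3, Rbl1, E2f4, Tfdp2, Cks2 and Mdm2, the ubiquitin ligase of p53. The 8 were the pocket protein gene Rbl2, E2f2, E2f6, E2f7, E2f8, Tfdp1, Fzr1, which activates the anaphase-promoting complex, and the phosphatase gene Cdc25a. Among the E2F genes whose H3K27ac state at a gene end differed, the direction was thus mixed. E2f1 and E2f4 were marked in the WT line alone, and E2f2, E2f6, E2f7 and E2f8 in the mutant line alone. Within 50 kb, however, H3K27ac covered fewer bases in the mutant line at E2f2 (0.458 kb in the WT against 0.402 kb) and E2f6 (1.33 kb against 0.416 kb). It covered more at E2f7 and E2f8. Covered bases of H3K27ac were at most 0.5 times the WT value at 14 of the 37 genes with any and at least double at 3, against 44.8% and 11.7% of covered genes. Those of H3K4me1 were so at 12 and 11 of 26, against 71.9% and 14.0%.

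Of these genes the largest difference in H3K4me3 was at Fzr1, with 38.6 kb in the WT against 23.3 kb in the mutant line, followed by Cks1b (28.9 kb and 22.5 kb) and E2f2 (18.6 kb and 12.3 kb). For H3K27ac it was at E2f7, an E2F repressor gene, with 0.355 kb in the WT against 1.3 kb in the mutant line, followed by E2f6 (1.33 kb against 0.416 kb) and Cdkn2c, a CDK4 inhibitor gene (1.31 kb against 0.486 kb). E2f7 and Fzr1 lie on chromosome 10 beyond 80 Mb as Cdk4 does. For H3K4me1 it was at Fzr1 (10.5 kb against 1.58 kb) and E2f6 (9.39 kb against 0.486 kb).

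The 3 genes without H3K4me3 were Skp2 and the linked INK4 genes Cdkn2a and Cdkn2b on chromosome 4. Cdkn2a, the gene of p16 and ARF, had 0 kb of every mark in both lines, H3K27me3 included. The nearest H3K4me3 peak was 110 kb away in the WT and 229 kb away in the mutant line, and the nearest H3K27ac peak 111 kb and 56.0 kb. Cdkn2b had only 0.26 kb of H3K27ac and 1.22 kb of H3K4me1 in the mutant line, about 39.4 kb from the gene. Peak lists alone do not say whether such a stretch is silent or not covered by reads, and this was not tested.

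The 16 E2F target genes of DNA replication carried H3K4me3 at a gene end in both lines at 15, the exception being Orc1 in both. H3K27ac lay there in the WT line alone at 6, among them the helicase subunit gene Mcm7, the loading factor gene Cdc6, the nucleotide synthesis genes Rrm2 and Tyms, and the polymerase gene Pola1. In the mutant line alone it lay there at 2 (Mcm4 and Mcm5). The same states were found at 16.1% and 6.84% of all genes, and at 26.7% and 10.9% of those with WT H3K4me3. Covered bases of H3K27ac were at most 0.5 times the WT value at 5 of 16 and at least double at 1, against 44.8% and 11.7%, and those of H3K4me1 at 5 and 3 of 9, against 71.9% and 14.0%. The largest differences were at Pcna for H3K27ac (1.57 kb against 0.218 kb) and at Cdc6, where H3K4me3 covered 25.6 kb against 17.9 kb and H3K4me1 11.1 kb against 0 kb. Mcm2 had 5.13 kb of H3K4me1 in the WT against 0 kb in the mutant line.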

How the data were processed

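Histone marks were measured by ChIP-seq in 2 mouse melanoma lines, with 1 library per line and mark (8 ChIP libraries, 4 inputs not analysed here). The submitters' processing notes name the build mm10 and the tools FastQC, MultiQC and MACS2, without versions. For the aligner, read filters and depth the sources used here give nothing. The deposited fold is a ratio, the enrichment of a peak over its control, and the deposited −log10 p and −log10 q values belong to the same peaks. The deposited score of the H3K4me3 lists is −10 times the log10 of the p value, with a smallest value of 50, as the values show. The rescaled score column of the other lists and the H3K27ac summit offsets, deposited by the authors, were not used. The control was the input of the same line, per the file names, except for the mutant H3K27me3 list, whose named control is the WT H3K27me3 library.

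Peaks on the 19 autosomes, X and Y were set against gene ends of a RefSeq GRCm38.p6 table, which has no strand or exons. Covered bases are unions of the windows, in Python 3.11.15 with pandas 2.3.3. The scripts were tested on simulated data with known answers. Counts are set beside the same share of all protein-coding genes. Fold and score describe peaks within a list. The 10 genes, the gene lists and most alternatives were chosen with earlier results of these data known. Of the 2 other lists, those genes were named whose H3K4me3 or H3K27ac at a gene end differed between the lines and up to 4 per mark with the largest difference in covered bases. One gene that this rule takes is not reported here. Genes named beyond these are the markers and the unmarked genes Skp2, Cdkn2a, Cdkn2b and Orc1, chosen after their values were seen. RefSeq upstream windows were checked for strand on 1883 overlapping windows of opposite strands, all of which were reverse complements.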

Additional observations from a re-analysis of the deposited data

How the results depend on the processing

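No paired analysis was possible because each line had 1 library per mark. The alternatives were a gene end distance of 2.5 kb, RefSeq starts alone (for the genes that have them), the more significant 50% of each list, lists of equal length per mark, windows of 20 kb and 100 kb, the whole gene body, peaks nearest to the gene alone, any difference in place of 0.5 or double, and leaving out Cdk4, the gene on chromosome 10. Of 72 counts over the 10 genes, 54 stayed within 1.5 times, among them many that were 0 before and after. The cause of the others was not tested, apart from what each alternative removes.

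At 2.5 kb, H3K4me3 in the WT line alone went from 1 gene to 0, since the second Cdkn1a peak then counts, H3K27ac in the WT line alone from 3 to 5 (with Rb1 and Cdkn1b) and in the mutant line alone from 1 to 2 (with Ccnd2), and H3K4me1 in the mutant line alone from 0 to 1 (Ccnd2). At RefSeq starts, H3K4me3 in the WT line alone was 0, H3K27ac in the mutant line alone 0, and H3K4me1 in the WT line alone 1 instead of 2. In the more significant 50%, the weak first Cdkn1a peak was lost (0 genes with H3K4me3 in the WT line alone), and H3K4me1 in the WT line alone was 1. H3K4me3 was then called at a gene end of 7 genes in each line, with none at Ccnd3, Cdkn1a and Cdkn1c. H3K27ac in the WT line alone went from 3 to 4 (with Ccnd1). In lists of equal length H3K4me1 in the WT line alone was 1, H3K4me1 was at most 0.5 times the WT value at 2 genes instead of 8 and at least double at 4 instead of 1, and H3K27ac was at least double at 1 instead of 0. The H3K4me1 count thus depends on the length of the lists. With nearest peaks alone, 1 gene instead of 0 had at most 0.5 times its WT H3K4me3. At 100 kb, 1 gene instead of 6 had at most 0.5 times its WT H3K27ac. With any difference counted, 7 genes had less and 3 more H3K4me3, and 10 had less H3K27ac.

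H3K27me3 at a gene end in the WT line was found at 1 gene, Cdkn1c, at 2 within 2.5 kb and at 0 in the more significant 50%. The count of 0 at RefSeq starts says nothing about Cdkn1c, which has no RefSeq start among those used. H3K27ac was lower in the mutant line at 10 genes in the whole lists and the gene body, at 8 in the more significant 50% and within 20 kb or 100 kb, and at 7 in lists of equal length and with nearest peaks alone.

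Of 180 recomputed differences of the 10 genes 22 changed sign, 14 from lower to higher in the mutant line and 8 the other way. Of these 22, 6 concerned a difference past the limit of 0.5. In lists of equal length they were H3K27ac at Ccnd3 (0.001 kb) and H3K4me1 at Cdk6 (0.232 kb), E2f1 (0.256 kb) and Cdkn1a (0.227 kb), and in other windows H3K27ac at Cdk6 within 20 kb (0.023 kb) and at Cdkn1c within 100 kb (0.015 kb). The smaller differences that turned higher were H3K27ac at Ccnd1 within 20 kb (0.075 kb), with nearest peaks (0.161 kb) and at equal length (0.21 kb), at Ccnd2 in the more significant 50% (0.169 kb) and at equal length (0.258 kb), at Cdk4 in the more significant 50% (0.082 kb) and at Cdkn1a within 100 kb (0.043 kb), and H3K4me3 at Cdkn1c within 100 kb (0.177 kb). All 3 genes with more H3K4me3 in the mutant line, Cdk4, E2f1 and Rb1, turned lower in the more significant 50% (-1.12 kb, -2.3 kb and -1.45 kb). Within 100 kb E2f1 (-0.523 kb) and Rb1 (-3.79 kb) turned too, with nearest peaks Cdk4 (-0.02 kb) and E2f1 (-0.39 kb), and over the gene body Rb1 (-0.98 kb).

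For the other named genes 71 of 576 changed sign, 8 of them past the limit of 0.5 or double. They were H3K27ac at Aurka in the more significant 50% (0.001 kb) and at equal length (0.053 kb), H3K4me1 at equal length at E2f2 (1.31 kb), E2f4 (0.054 kb), E2f7 (0.711 kb) and E2f8 (0.91 kb), H3K4me1 at Fzr1 with nearest peaks alone (0.429 kb), and H3K27ac at Tfdp1 within 100 kb (-0.037 kb).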
